A study of Mus musculus with 22 samples.

Results

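Liver builds triglyceride by joining fatty acids to a glycerol backbone, and the enzymes of that route are described here across genotype and diet. They are 10 genes found by their symbols in the deposited count table, out of 55573 genes in all: the acyl-CoA synthetase Acsl5, the glycerol-3-phosphate acyltransferase Gpam, the lysophosphatidic acid acyltransferases Agpat2 and Agpat3, the phosphatidic acid phosphatases (lipins) Lpin1, Lpin2 and Lpin3, the diacylglycerol acyltransferases Dgat1 and Dgat2, and the monoacylglycerol acyltransferase Mogat1. Of these, 9 reached a mean of 10 counts per library and were tested with 14062 genes in all. Mogat1 had a mean of 6.36 counts, with 0 to 14 counts per library, and was left out of the tests.

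Each library came from the liver of 1 C57BL/6 mouse, 22 mice in all. Control (Cre) mice carried Albumin-Cre+/- and Flcn WT/WT. In liver-Flcn-/- mice both Flcn alleles were floxed and the same Albumin-Cre, a driver active in hepatocytes, was used to remove exon 7 of Flcn, so every mouse in the study carried the recombinase. Cell types of the liver in which the driver is inactive would keep the gene, and the deletion was not measured here by exon or cell type. From 6 weeks of age, mice ate chow (10 kcal percent fat) or a methionine and choline deficient (MCD) diet, each for 6 weeks, and the series' design text gives their age as 3 months. The groups were Cre mice on chow (6), liver-Flcn-/- mice on chow (5), Cre mice on MCD (5) and liver-Flcn-/- mice on MCD (6). The comparisons asked what the diet did in each genotype, what loss of Flcn did on each diet, and whether the response to the diet differed between genotypes.

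Triglyceride is made in the liver by a sequence of steps. A synthetase first activates a fatty acid to its acyl-CoA, GPAM and then the AGPATs attach acyl chains to glycerol-3-phosphate to give phosphatidic acid, a lipin removes the phosphate to give diacylglycerol, and a DGAT adds the last chain. A bypass starts from monoacylglycerol and uses a MOGAT. Lipin-1 also acts in the nucleus as a coregulator of fatty acid oxidation genes, DGAT2 is linked to fatty acids newly made in the liver, and the MCD diet is a standard mouse model of steatohepatitis because choline is needed to export triglyceride in lipoproteins.

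On GRCm38, Lpin3 lies at chr2:160880670-160906002 on the plus strand and Dgat2 at chr7:99153658-99182719 on the minus strand. Lpin1 spans chr12:16535669-16610966 and Acsl5 chr19:55251938-55297720, with Gpam at chr19:55067268-55127238. Counts were taken over exons. Exons of Acsl5 share 404 of 4864 bases with Zdhhc6, those of Agpat2 share 64 of 2130 with Egfl7, those of Agpat3 share 16 of 7790 with Gm40709 and those of Mogat1 share 200 of 1558 with BC035947, always on the opposite strand, and the strand setting of the counting is not given in the sources used here. Reads in those stretches cannot be assigned with certainty.

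Promoter sequence from RefSeq (GRCm38.p6, 250 bases before to 50 bases after each start) was matched for 8 of the 10 genes in 12 windows, and none was matched for Dgat1 or Dgat2. Loss of Flcn is known to release TFEB and TFE3, factors that bind the E-box CACGTG, so this palindrome and its longer form TCACGTGA, which contains it, were searched on both strands. CACGTG occurred in 7.15% of all 32851 windows and in 2 of the 12, in Lpin3 and in 1 start of Lpin2. TCACGTGA occurred in 0.974% of all windows and in 0 of the 12. The sequences below are shown because Lpin3 passed the test of a different response to the diet between genotypes and because the second and the third hold the matches, which are in capitals. The first is the stretch before the Lpin3 start (chr2:160880420-160880669, plus strand), which holds no match, the second 30 bases of the same window around the match, which begins 23 bases into the transcript (chr2:160880680-160880709), and the third the stretch before the Lpin2 start (chr17:71183282-71183531, plus strand), where the match begins at base -9.
Lpin3 before the start: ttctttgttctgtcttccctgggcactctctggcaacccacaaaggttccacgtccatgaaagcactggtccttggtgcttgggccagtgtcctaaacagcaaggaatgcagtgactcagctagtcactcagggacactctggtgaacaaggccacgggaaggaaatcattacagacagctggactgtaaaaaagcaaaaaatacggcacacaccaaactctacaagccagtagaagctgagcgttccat
Lpin3 around the match: gcctgtttctgcCACGTGgctcacagctca
Lpin2 before the start: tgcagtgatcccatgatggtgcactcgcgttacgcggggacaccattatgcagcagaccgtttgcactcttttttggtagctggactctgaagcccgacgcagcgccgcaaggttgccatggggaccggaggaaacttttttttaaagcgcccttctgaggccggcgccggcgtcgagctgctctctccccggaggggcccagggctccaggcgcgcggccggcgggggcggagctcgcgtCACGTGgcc
A match describes the letters of a window and is not evidence of binding.

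Levels are given as CPM, a gene's reads as a share of the library's reads on a common scale, after TMM, a factor that adjusts each library so that most genes do not differ between libraries. A library held 13751347 to 21144388 reads on genes. The TMM factors separated the diets: they were 0.815 to 0.889 in Cre mice and 0.919 to 0.969 in liver-Flcn-/- mice on chow, and 1.06 to 1.2 and 1.06 to 1.16 on MCD. Scaling by total counts alone would move the median log2 fold change of all genes from 0.01 to 0.43 for the diet in Cre mice, from 0.00 to 0.27 for the diet in liver-Flcn-/- mice and from -0.03 to 0.12 for genotype on chow. Small changes with the diet therefore depend on the scaling.

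Some libraries stood apart. Cre MCD 3 (the Cre mouse numbered 3 on MCD) had a summed level of 2477 CPM over 8 skeletal muscle markers, led by Myh1, against 1.08 to 123.5 CPM in the other Cre mice on MCD. All 8 muscle markers were at or near 1 CPM in sum in most other libraries, and none was at 0 throughout a group. Sex was not in the labels. By Xist and Y-linked counts there were 3 males among the 6 Cre and 2 among the 5 liver-Flcn-/- mice on chow, and 2 among the 5 Cre and 3 among the 6 liver-Flcn-/- mice on MCD. The 5 chow libraries with a low share of uniquely mapped reads were exactly these 5 chow males, so on chow the 2 cannot be told apart.

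The hepatocyte identity of the tissue was plain, since all 8 hepatocyte markers were detected in every group and Alb led them. Their summed level was lower on MCD, going from a median of 136300 CPM in Cre mice on chow to 98570 on MCD and from 121500 to 74170 in liver-Flcn-/- mice, and 6 and 7 of the 8 markers passed the test as lower, beside 28.2% and 22.5% of all tested genes. Over 6 adipocyte markers, cells that also make triglyceride, the sum never exceeded 6.47 CPM (in Cre MCD 3) and its group medians were 0.03 to 0.46 CPM, with Lep at 0 in all 4 groups and Cfd the most abundant. In whole liver, fewer cells of a type and less RNA per cell cannot be told apart.

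Flcn itself was lower in liver-Flcn-/- mice on chow and overlapped between genotypes on MCD. On chow it lay at 26.1 to 40.2 CPM (median 31.8, n = 6) in Cre mice and at 24.2, 19.96, 16.7, 19.4 and 21.8 CPM in liver-Flcn-/- mice, a log2 fold change of -0.63 (SE 0.173, edgeR quasi-likelihood adjusted p = 0.0249) with no overlap. On MCD it was at 31.8, 18.2, 39.9, 32.5 and 23.6 CPM in Cre mice and at 17.6 to 32.6 CPM (median 26.6) in liver-Flcn-/- mice, a log2 fold change of -0.16 (SE 0.170, adjusted p = 0.567). The deletion removes 1 exon, so counts over the whole gene do not measure it directly. The chow difference lost the threshold without Cre Chow 6 (adjusted p = 0.0564), KO Chow 3 (0.0663) or KO Chow 4 (0.0688), where KO in a library's name stands for liver-Flcn-/-. It also lost it without the 5 chow libraries of low mapping share (log2 -0.55, adjusted p = 0.241), in females only (0.0984), with total-count scaling (0.0671) and with the replicate block (0.0528).

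The enzymes differed widely in level. Lengths are the union of exons over all annotated transcripts, which need not match the transcript expressed, so ranks between genes are approximate. Per kb of exon in Cre mice on chow, Acsl5 (175.2 ± 39.1 CPM per kb, SD, n = 6) and Dgat2 (173.5 ± 15.4) stood highest, followed by Agpat2 (127.7 ± 26.7) and Gpam (63.2 ± 28.7). Agpat3 (27.9 ± 3.07), Lpin2 (19.5 ± 6.39), Lpin1 (16.8 ± 12.9) and Dgat1 (6.68 ± 0.586) followed, and Lpin3 (1.56 ± 0.133) and Mogat1 (0.254 ± 0.0703) were lowest. In this order the libraries of neighbouring genes overlapped, except between Gpam and Agpat3, between Dgat1 and Lpin3 and between Lpin3 and Mogat1. Among these 10 genes, Agpat2 stood above Agpat3, Lpin1 and Lpin2 above Lpin3, and Dgat2 above Dgat1, and Agpat1, Agpat4 and Agpat5 had means of 3.27, 0.309 and 1.48 CPM per kb. On MCD the length-scaled level of Agpat3 rose to 43.0 ± 5.82 in Cre mice, while Acsl5 dropped to 66.3 ± 8.89 CPM per kb, below Dgat2 (135.2 ± 33.9) and Agpat2 (106.5 ± 11.1).

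**Figure D1:**
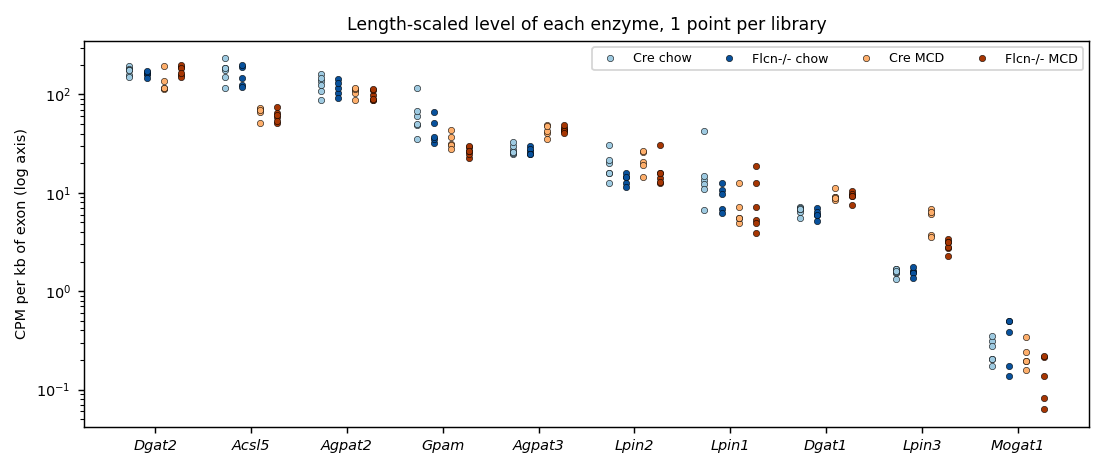
Length-scaled level (CPM per kb of exon, log axis) of the 10 enzymes, 1 point per library, coloured by group; 1 library with 0 counts of Mogat1 is not drawn. Dgat2, Acsl5 and Agpat2 lead at 51 to 233 CPM per kb, and Mogat1 lies below 1 in every library.

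With the MCD diet, enzymes of the route passed the test in both directions, as did genes at large. Of 9 enzymes tested in Cre mice, 3 rose (Lpin3, Agpat3, Dgat1) and 4 fell (Acsl5, Lpin1, Gpam, Dgat2), beside 29.3% of all tested genes higher and 28.2% lower. The median log2 fold change was -0.26 over the 9 enzymes and 0.01 over all genes. Of the 9 in liver-Flcn-/- mice, 3 rose (Lpin3, Agpat3, Dgat1) and 2 fell (Acsl5, Gpam), beside 22.5% higher and 22.5% lower, with medians of 0.10 and 0.00. With total-count scaling the calls became 4 higher and 1 lower in Cre mice and 5 higher and 1 lower in liver-Flcn-/- mice, and over all genes 7900 higher and 1748 lower in Cre mice (4121 and 3968 with TMM) and 5803 and 1731 in liver-Flcn-/- mice (3162 and 3166).

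**Figure D2:**
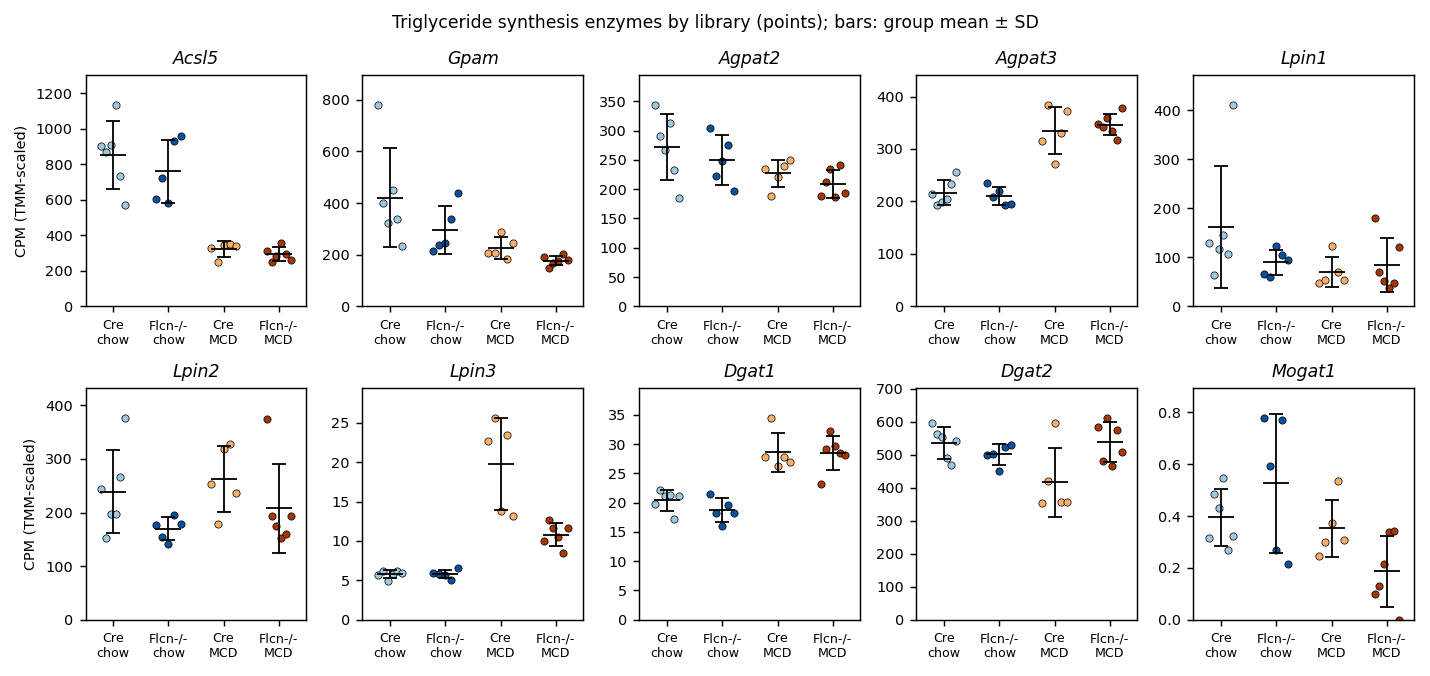
TMM-scaled CPM of the 10 enzymes in 22 livers (points), with group mean and SD (bars); each panel has its own axis from 0. Acsl5 falls and Agpat3, Lpin3 and Dgat1 rise on MCD in both genotypes, and Lpin3 rises to 13.2 to 25.6 CPM in Cre mice against 8.45 to 12.7 CPM in liver-Flcn-/- mice.

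At the entry of the route, the diet lowered Acsl5, the synthetase of the endoplasmic reticulum and mitochondria. Cre mice on chow had 568.1 to 1135 CPM (median 886.0) and on MCD 326.0, 247.2, 344.7, 354.0 and 340.2 CPM. Liver-Flcn-/- mice had 602.6, 722.6, 580.9, 932.6 and 960.3 CPM on chow and 248.1 to 359.6 CPM (median 292.0) on MCD. Every MCD library was below every chow library of its genotype, and the log2 fold change was -1.40 (SE 0.166, edgeR adjusted p = 4.1e-07) in Cre mice and -1.37 (SE 0.161, adjusted p = 7.54e-07) in liver-Flcn-/- mice. The genotypes overlapped on both diets, with log2 differences of -0.17 (95% interval -0.50 to 0.17) on chow and -0.13 (-0.47 to 0.20) on MCD.

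Gpam, which catalyses the first acylation, was also lower on MCD. In Cre mice it was 233.2 to 781.0 CPM (median 368.8) on chow and 206.9, 205.5, 288.3, 185.1 and 244.9 CPM on MCD, with overlap, a log2 fold change of -0.90 (SE 0.233, edgeR adjusted p = 0.00241). Among liver-Flcn-/- mice it was 215.3, 237.5, 246.5, 339.9 and 438.0 CPM on chow and 149.7 to 201.4 CPM (median 177.0) on MCD, without overlap, a log2 fold change of -0.74 (SE 0.229, adjusted p = 0.0119). Without KO Chow 5, the library with the highest level in its group, this was -0.55 with adjusted p = 0.0577. With total-count scaling the adjusted p of Gpam was 0.0697 in Cre and 0.0793 in liver-Flcn-/- mice, at the same sign.

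At the next acylation Agpat3 rose with the diet, while Agpat2 did not pass the test. Agpat3 went from 192.4 to 256.5 CPM (median 209.8) in Cre mice on chow to 315.7, 384.3, 271.9, 331.4 and 373.0 CPM on MCD, and from 234.8, 208.4, 219.4, 193.7 and 195.4 to 317.8 to 378.2 CPM (median 345.2) in liver-Flcn-/- mice. No MCD library overlapped the chow libraries of its genotype. The fold was 1.55 (log2 0.63, SE 0.0927, edgeR adjusted p = 7.39e-06) and 1.65 (log2 0.72, SE 0.0942, adjusted p = 2.84e-06). Agpat2 overlapped between diets at 185.4 to 344.0 CPM in Cre mice on chow and at a mean of 226.9 ± 23.7 CPM (SD, n = 5) on MCD, with a log2 fold change of -0.26 (SE 0.137, adjusted p = 0.107) that became 0.15 with total-count scaling, and of -0.25 (SE 0.136, adjusted p = 0.137) in liver-Flcn-/- mice, which became 0.01. Without Cre Chow 6, the Cre value was -0.35 with adjusted p = 0.0198, and without the chow libraries of low mapping share -0.36 with adjusted p = 0.0233.

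The lipins parted from each other. Lpin3, the least abundant of them, rose with the diet in both genotypes and rose less without Flcn. On chow the genotypes were alike in level: 4.88 to 6.22 CPM (median 5.82) in Cre mice and 5.91, 5.82, 5.71, 5.02 and 6.52 CPM in liver-Flcn-/- mice, a log2 difference of 0.01 with a 95% interval of -0.32 to 0.34. On MCD Cre mice had 22.7, 25.6, 13.83, 23.5 and 13.2 CPM, whereas liver-Flcn-/- mice had 8.45 to 12.7 CPM (median 11.1). Every MCD library lay above every chow library, and every Cre mouse on MCD above every liver-Flcn-/- mouse on MCD, although Cre MCD 5 and Cre MCD 3 came close. The fold with the diet was 3.43 in Cre mice (log2 1.78, SE 0.155, edgeR adjusted p = 5.71e-09) and 1.86 in liver-Flcn-/- mice (log2 0.90, SE 0.157, adjusted p = 8.83e-05).

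Between genotypes on MCD the Lpin3 log2 fold change was -0.87 (SE 0.149, edgeR adjusted p = 0.000434), and the test of the difference between the diet responses gave -0.88 (SE 0.218, adjusted p = 0.0157). Leaving out any single mouse kept the genotype call on MCD (22 of 22 fits, adjusted p up to 0.00212) and that of the interaction (22 of 22, up to 0.0349). The interaction lost the threshold with limma-voom (adjusted p = 0.0569), without the 5 chow libraries of low mapping share (0.0796) and in females only (0.0726), at similar sizes of -0.84, -0.91 and -1.0. Stellate cell markers were also lower in liver-Flcn-/- mice on MCD by group. Over 7 genes led by Dcn, none at 0, the sum was 451.5 to 862.6 CPM (median 633.3) in Cre mice and 400.7 to 517.2 CPM (median 429.6) in liver-Flcn-/- mice, and 3 of 7 passed as lower and 0 as higher in liver-Flcn-/- mice on MCD, beside 8.53% and 8.06% of all tested genes. On chow it was 284.3 to 488.8 CPM (median 362.5) in Cre and 332.1 to 506.6 CPM (median 441.0) in liver-Flcn-/- mice. Within groups, Cre MCD 2 had the highest Lpin3 and the lowest stellate sum, as did KO MCD 2. The part of stellate cells in the Lpin3 result was not tested.

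Lpin1, the lipin most tied to fasting and circadian rhythm, was variable and fell with the diet in Cre mice. On chow Cre mice had 64.2 to 411.5 CPM (median 123.8), where 411.5 CPM belonged to Cre Chow 6 and the next was 144.9 CPM. On MCD they had 47.8, 54.3, 122.5, 69.96 and 53.6 CPM, a log2 fold change of -1.22 (SE 0.436, edgeR adjusted p = 0.0208). Without Cre Chow 6 this was -0.70 (adjusted p = 0.111), and it also lost the threshold without Cre MCD 1 (0.053) or Cre MCD 5 (0.0523). Without the 5 chow libraries of low mapping share it was -0.65 (adjusted p = 0.23), with total-count scaling -0.79 (0.0998) and with the replicate block -0.79 (0.0748). In liver-Flcn-/- mice Lpin1 was 66.3, 60.6, 123.0, 103.9 and 94.7 CPM on chow and 38.1 to 181.2 CPM (median 60.8) on MCD, a log2 fold change of -0.08 (95% interval -0.96 to 0.80) that was 0.17 with total-count scaling. Whether the diet responses of the genotypes differ could not be resolved: the difference was 1.14 with a 95% interval of -0.12 to 2.40 (adjusted p = 0.256).

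Lpin2 overlapped in all 4 comparisons. It ran from 153.3 to 376.2 CPM (median 220.8) in Cre mice on chow, at 254.1, 178.8, 319.2, 327.8 and 236.9 CPM in Cre mice on MCD, at 176.6, 154.0, 141.7, 195.6 and 179.2 CPM in liver-Flcn-/- mice on chow and from 152.7 to 373.8 CPM (median 184.1) on MCD. Its log2 differences with the diet were 0.14 (95% interval -0.33 to 0.61) in Cre and 0.29 (-0.18 to 0.77) in liver-Flcn-/- mice, and both passed with total-count scaling, at 0.57 (adjusted p = 0.0263) and 0.55 (0.0408). Between genotypes they were -0.50 (-0.97 to -0.02, edgeR adjusted p = 0.191) on chow and -0.34 (-0.81 to 0.13, adjusted p = 0.338) on MCD, and the latter was -0.59 with adjusted p = 0.0418 without KO MCD 1.

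Clock genes varied between libraries. Their summed level pools 12 genes and does not give the time of day at sampling, so it is given as a description. The summed level of 12 clock genes, led by Nr1d1 and with none at 0, was 202.1 to 757.8 CPM (median 328.1) in Cre mice on chow, 199.4 to 353.5 (median 256.6) in liver-Flcn-/- mice on chow, 305.3 to 661.6 (median 389.7) in Cre mice on MCD and 221.3 to 461.9 (median 301.2) in liver-Flcn-/- mice on MCD. Cre Chow 6, Cre MCD 3 and KO MCD 1 had both the highest clock sum and the highest Lpin1 of their groups. Cre Chow 5 had a clock sum of 498.1 CPM, above that of KO MCD 1, with Lpin1 at 106.4 CPM, and Cre Chow 4 had the lowest clock sum of its group with Lpin1 at 144.9 CPM. Among liver-Flcn-/- mice on chow, KO Chow 3 led Lpin1 with a clock sum of 239.6 CPM, and KO Chow 5 led the clock sum. With the diet, 4 of 8 fasting and glucocorticoid response genes were higher and 2 lower in each genotype. Beside this, 29.3% of all tested genes were higher and 28.2% lower in Cre mice, and 22.5% each way in liver-Flcn-/- mice. The summed medians of these 8 genes were 2795 (Cre) and 2131 CPM on chow and 2218 (Cre) and 1728 CPM on MCD. Pck1, the most abundant of them, makes up much of these sums and had lower means on MCD. Its mean was 1931 CPM on chow and 1335 CPM on MCD in Cre mice, and 1039 and 743.1 CPM in liver-Flcn-/- mice. The part of sampling time or fasting in the Lpin1 and Lpin2 values was not tested.

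The lipins can also be given by share, as a description with no test. As a share of the length-scaled lipin level, Lpin1 made up 41.0% ± 9.46 (SD, n = 6) in Cre mice on chow and 20.7% ± 5.46 (n = 5) on MCD, and 37.1% ± 7.75 (n = 5) and 28.6% ± 7.63 (n = 6) in liver-Flcn-/- mice, where the diets overlapped. Lpin3 went from 4.78% ± 1.90 to 16.4% ± 6.42 in Cre mice and from 6.45% ± 1.10 to 11.3% ± 3.44 in liver-Flcn-/- mice. Lpin2 kept the largest mean share in each group, between 54.2% and 62.9%. The exon unions used were 9665 bases for Lpin1, 12233 for Lpin2 and 3694 for Lpin3, so shares between genes are approximate.

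At the last step Dgat1 rose on MCD in both genotypes and Dgat2 differed between genotypes on MCD. Dgat1 was 17.1 to 22.1 CPM (median 21.08) in Cre mice on chow and 27.8, 34.4, 26.2, 27.8 and 27.0 CPM on MCD, and 21.5, 18.2, 15.9, 19.6 and 18.2 CPM against 23.2 to 32.2 CPM (median 28.8) in liver-Flcn-/- mice. The diets did not overlap, and the log2 fold change was 0.49 (SE 0.0946, edgeR adjusted p = 0.000165) and 0.61 (SE 0.0959, adjusted p = 2.73e-05). Between genotypes the log2 difference was -0.13 (95% interval -0.33 to 0.07) on chow and -0.01 (-0.20 to 0.19) on MCD.

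Dgat2, the more abundant of the pair, was 467.6 to 595.5 CPM (median 546.7) in Cre mice on chow. On MCD 4 of the 5 Cre mice lay lower, at 354.1, 418.9, 356.1 and 357.7 CPM. Cre MCD 3, the library with the highest muscle marker sum, had 597.1 CPM. Cre MCD 4, with a muscle marker sum of 123.5 CPM, had Dgat2 at 356.1 CPM, and KO MCD 3, with a sum of 56.3 CPM, at 610.7 CPM. Liver-Flcn-/- mice had 499.9, 501.9, 449.3, 522.1 and 529.5 CPM on chow and 465.4 to 610.7 CPM (median 541.5) on MCD. Dgat2 fell with the diet in Cre mice (log2 -0.36, SE 0.121, edgeR adjusted p = 0.0146), a sign that turned to 0.06 with total-count scaling, and was 0.10 (95% interval -0.15 to 0.35) in liver-Flcn-/- mice, where total-count scaling gave 0.36 (adjusted p = 0.0175). On MCD it was higher in liver-Flcn-/- than in Cre mice by a log2 fold change of 0.37 (SE 0.121, adjusted p = 0.0405).

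The Dgat2 calls were near the threshold. The fall in Cre mice had an adjusted p of 0.0568 without Cre MCD 5, 0.0524 with only the groups compared, 0.0529 without the chow libraries of low mapping share and 0.668 with total-count scaling. The genotype difference on MCD lost the threshold without Cre MCD 1, 2, 4 or 5 (adjusted p 0.117, 0.0574, 0.117 and 0.103) or without KO MCD 1, 3, 5 or 6 (0.076, 0.0908, 0.0754 and 0.0546). It was also lost with no filter (0.0679), with a mean of at least 50 counts (0.0504), with only the groups compared (0.114), without the chow libraries of low mapping share (0.0525), with the replicate block (0.0502) and with total-count scaling (0.0555). Without Cre MCD 3 both were larger, at -0.52 (adjusted p = 8.81e-05) and 0.53 (0.000705), and the difference between the diet responses was 0.63 (adjusted p = 0.00545) against 0.46 (SE 0.170, adjusted p = 0.0922) with all libraries. In females only the interaction was also 0.63 (adjusted p = 0.0313). The part of muscle RNA in the level of Dgat2 in Cre MCD 3 was not tested.

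Mogat1 of the bypass was near the limit of detection, at 0.271 to 0.548 CPM (median 0.377) in Cre mice on chow and 0.247, 0.302, 0.375, 0.534 and 0.307 CPM on MCD. For liver-Flcn-/- mice it was 0.778, 0.594, 0.269, 0.772 and 0.216 CPM on chow and 0.00 to 0.342 CPM (median 0.173) on MCD, and 3 counts correspond to 0.124 to 0.241 CPM in these libraries. All groups overlapped. Without the filter on low counts the diet lowered it by a log2 fold change of -1.43 (SE 0.479, edgeR adjusted p = 0.0336) in liver-Flcn-/- mice, and the other comparisons had adjusted p of 0.374 or more.

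Between genotypes few enzymes passed. On chow 0 of 9 did with edgeR (lowest adjusted p = 0.18) beside 5.52% of all genes higher and 3.1% lower, 2 had an unadjusted p under 0.05 (Gpam and Lpin2, both lower), and DESeq2 and limma-voom also called 0. On MCD 1 of 9 was higher (Dgat2) and 1 lower (Lpin3) beside 8.06% and 8.53%. For the interaction 1 of 9 passed, as a smaller rise (Lpin3), beside 3.29% higher and 5.54% lower. The median log2 fold change of the 9 was -0.13 on chow, -0.12 on MCD and 0.12 for the interaction, against -0.03, -0.01 and 0.03 over all genes.

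**Figure D3:**
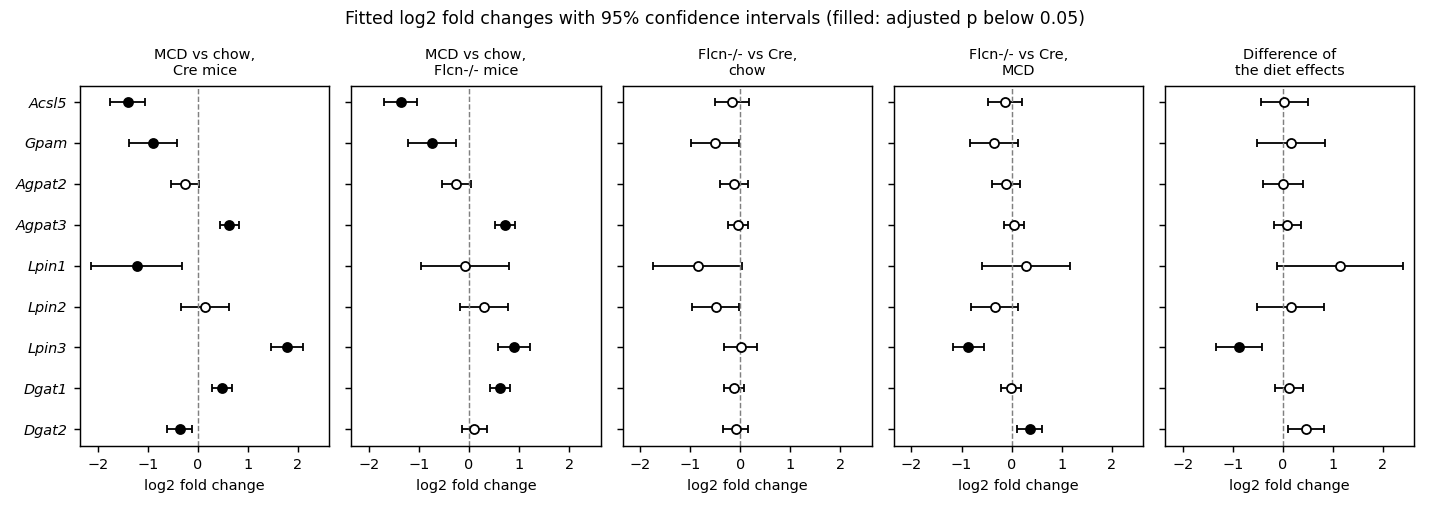
Fitted log2 fold changes (points) with 95% confidence intervals (bars) of the 9 tested enzymes in 5 comparisons; filled points have an adjusted p below 0.05. The diet panels hold 7 and 5 filled points and the genotype panels 0 and 2; with total-count scaling the Dgat2 fall in Cre mice turns to 0.06.

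Ratios of isozymes within a library do not depend on the scaling between libraries. For each library the ratio of counts was taken for Agpat2 to Agpat3, Lpin1 to Lpin2 and Dgat1 to Dgat2, and group means of its log2 were compared with exact two-sided permutation tests (all assignments of 6 against 5 mice, 12 tests adjusted together, smallest possible p = 0.00216). Agpat2 to Agpat3 was 0.723 to 1.60 (median 1.42) in Cre mice on chow and 0.743, 0.491, 0.814, 0.723 and 0.670 on MCD. Among liver-Flcn-/- mice the ratio was 1.29, 1.06, 1.13, 1.42 and 1.01 on chow and 0.510 to 0.757 (median 0.588) on MCD. The log2 difference was -0.86 in Cre mice (exact p = 0.0108, adjusted p = 0.026) and -0.97 in liver-Flcn-/- mice (exact p = 0.00216, adjusted p = 0.013). These ratios are of counts, which grow with transcript length, so only their change with the diet is read. Per kb of exon Agpat2 stayed above Agpat3 in all 11 mice on MCD, at 87.7 to 117.4 against 34.9 to 49.3 CPM per kb.

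The Dgat1 to Dgat2 ratio was 0.0331 to 0.0436 (median 0.0386) in Cre mice on chow and 0.0784, 0.0822, 0.0438, 0.0780 and 0.0756 on MCD, a log2 difference of 0.87 (exact p = 0.00216, adjusted p = 0.013). In liver-Flcn-/- mice it was 0.0430, 0.0363, 0.0355, 0.0377 and 0.0343 on chow and 0.0399 to 0.0637 (median 0.0541) on MCD, a log2 difference of 0.51 (exact p = 0.00649, adjusted p = 0.0195). On MCD the genotypes differed by -0.40 (exact p = 0.0649, adjusted p = 0.13), or by -0.57 without Cre MCD 3 (adjusted p = 0.0229). The Lpin1 to Lpin2 ratio was 0.399 to 1.09 (median 0.564) in Cre mice on chow and 0.188, 0.304, 0.384, 0.213 and 0.227 on MCD, a log2 difference of -1.22 (exact p = 0.00433, adjusted p = 0.0173), which stayed past the threshold without Cre Chow 6 (-1.04). In liver-Flcn-/- mice it was -0.49 (exact p = 0.134, adjusted p = 0.201), and none of the 6 genotype ratios passed. The Agpat2 to Agpat3 ratio in Cre mice had an adjusted p of 0.0571 without any 1 of Cre Chow 1 to 5 or Cre MCD 2.

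**Figure D4:**
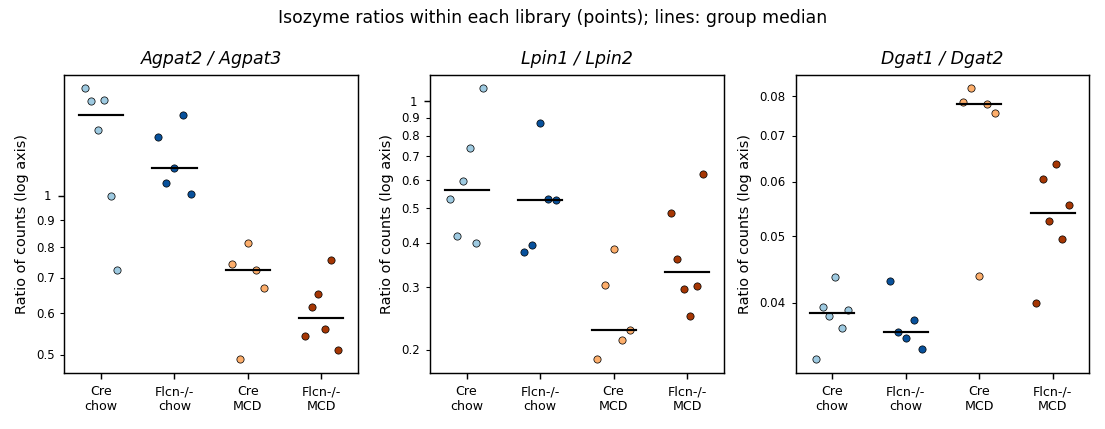
Ratio of counts of each isozyme pair within each library (log axis; points, 1 per mouse; line, group median). The Agpat2 to Agpat3 ratio of counts, not scaled by length, lies at or below 0.814 in the 11 MCD livers, and the Dgat1 to Dgat2 ratio of the MCD livers lies at or above 0.0399, with Cre MCD 3 at 0.0438.

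Within groups, after group means were removed, the enzymes did not vary as 1 block. Over 22 libraries, as a description, Pearson's r of log2 CPM was 0.78 for Lpin1 with Lpin2, 0.64 for Acsl5 with Gpam and -0.69 for Acsl5 with Agpat3, the extremes among 36 pairs. The genes most like each enzyme among 12847 with a mean of at least 1 CPM were Acss2 (r = 0.94), an acetyl-CoA synthetase, and Sc5d (0.92), a sterol desaturase, for Acsl5, and Slc25a44 (0.90) and Acly (0.90), the ATP citrate lyase that feeds fatty acid synthesis, for Gpam. For Lpin1 they were Slc25a32 (0.89) and Slc37a4 (0.89), the glucose-6-phosphate transporter, and for Lpin2 Gys2 (0.87), the liver glycogen synthase, and Slc22a4 (0.83). For Lpin3 they were Vrk3 (0.78) and Vars (0.77), for Dgat1 Tst (0.85) and Timmdc1 (0.83), for Dgat2 Ddo (0.86) and Tnks1bp1 (0.84), for Agpat2 Slc22a15 (0.85) and Pnkd (0.81), and for Agpat3 Jtb (0.90) and Cfap298 (0.90). Without the 2 libraries farthest out for the enzyme, these r values were 0.62 to 0.91. All points share the libraries' depth and RNA quality, whose part in these values was not tested.

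Of 16 other enzymes of the route, 15 were tested. With the diet 8 were higher and 3 lower in Cre mice, and likewise 8 and 3 in liver-Flcn-/- mice, beside 29.3% and 28.2% of all tested genes in Cre and 22.5% and 22.5% in liver-Flcn-/- mice, with median log2 fold changes of 0.41 and 0.31. The 4 largest changes in Cre mice were in Mogat2, the intestinal-type monoacylglycerol acyltransferase, Gpat3, a glycerol-3-phosphate acyltransferase of the endoplasmic reticulum, Plpp2, a lipid phosphate phosphatase, and Acsl1, the main liver acyl-CoA synthetase. In liver-Flcn-/- mice they were in Gpat3, Plpp2, Mogat2 and Acsl4, a synthetase that prefers arachidonate.

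Mogat2 was the enzyme that differed most between genotypes on chow. In Cre mice on chow it had 2 to 7 counts per library, 0.124 to 0.482 CPM (median 0.395), and in liver-Flcn-/- mice on chow 257, 72, 130, 112 and 101 counts, with a median of 6.18 CPM. On MCD Cre mice had 11.6, 9.87, 15.2, 9.85 and 7.43 CPM and liver-Flcn-/- mice 13.1 to 28.9 CPM (median 19.2). The genotypes did not overlap on chow (log2 4.64, 95% interval 3.76 to 5.51, edgeR adjusted p = 1.84e-07), nor did the diets in Cre mice (log2 4.92, interval 4.06 to 5.79, adjusted p = 3.96e-09). The diet response in liver-Flcn-/- mice was 1.14 (SE 0.309, adjusted p = 0.00461), or 1.87 (3.46e-05) without the chow libraries of low mapping share, with overlap through KO Chow 1, the difference of the responses was -3.78 (SE 0.526, adjusted p = 0.000518), and the genotype difference on MCD was 0.85 (SE 0.302, adjusted p = 0.0564). Exons of Mogat2 share 55 of 1835 bases with Gm45012 on the opposite strand, and the size of a fold against 2 to 7 counts is uncertain.

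Gpat3 rose from 1.37 to 12.0 CPM (median 3.36) in Cre mice on chow to 56.8, 45.4, 56.4, 42.6 and 66.4 CPM on MCD (log2 3.302, SE 0.382, edgeR adjusted p = 2.99e-07), and from 12.4, 9.09, 7.72, 14.8 and 11.9 to 49.1 to 83.7 CPM (median 66.3) in liver-Flcn-/- mice (log2 2.58, SE 0.382, adjusted p = 1.36e-05). No library overlapped between diets, and the 3 Cre males on chow were the lowest at 2.21, 2.23 and 1.37 CPM. Without the chow libraries of low mapping share the Cre value was 2.61 (adjusted p = 1.65e-06), and in females only 2.69 (1.52e-05). Gpat3 thus moved against Gpam, which belongs to the same step. Plpp2 rose by log2 1.91 (SE 0.223, adjusted p = 3.52e-07) and 1.33 (SE 0.225, adjusted p = 5.89e-05), and Acsl4 by 1.22 (SE 0.141, adjusted p = 3.09e-07) in Cre and 1.04 (SE 0.144, adjusted p = 5.83e-06) in liver-Flcn-/- mice, with an interaction of -0.18 (adjusted p = 0.633).

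Acsl1 fell with the diet from 797.7 to 1037 CPM (median 897.6) to 265.5, 177.3, 431.0, 262.4 and 330.0 CPM in Cre mice (log2 -1.61, SE 0.170, edgeR adjusted p = 8.45e-08). Among liver-Flcn-/- mice its level was 626.6, 758.2, 694.6, 596.2 and 569.4 CPM on chow and 296.9 to 511.6 CPM (median 432.7) on MCD (log2 -0.63, SE 0.163, adjusted p = 0.0032). The fall was smaller in liver-Flcn-/- mice by 0.98 (SE 0.233, adjusted p = 0.0127), except that without the 5 chow libraries of low mapping share the adjusted p was 0.0935. On chow Acsl1 was lower in liver-Flcn-/- mice by log2 -0.47 (SE 0.165, adjusted p = 0.0802), without overlap. This lower start on chow enters the interaction. On MCD Acsl1 was higher in liver-Flcn-/- mice by 0.51 (SE 0.165, adjusted p = 0.036), a call lost without Cre MCD 1, 2 or 4 (0.086, 0.0815 and 0.0884) or KO MCD 1, 4, 5 or 6 (0.0613, 0.079, 0.0591 and 0.0645), and also with only the groups compared (0.101), without the chow libraries of low mapping share (0.0521) and with the replicate block (0.0575).

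Between genotypes on chow 3 of the 15 were higher (Mogat2, Plpp2 and Agpat5, an acyltransferase of mitochondria) and 1 lower (Gpd1, which makes glycerol-3-phosphate), beside 5.52% and 3.1% of all tested genes. Gpd1 was 329.3 to 480.5 CPM (median 398.4) in Cre mice and 309.0, 279.9, 346.8, 228.5 and 239.0 CPM in liver-Flcn-/- mice (log2 -0.51, SE 0.119, edgeR adjusted p = 0.00893). The Gpd1 call was lost in females only (0.0623). Agpat5 was higher by 0.52 (SE 0.119, adjusted p = 0.00681), a call lost without the chow libraries of low mapping share (0.148) and in females only (0.157), and Plpp2 by 0.76 (SE 0.222, adjusted p = 0.036), the latter lost without any 1 of Cre Chow 1, 2, 3 or 5 or KO Chow 1, 3, 4 or 5 (adjusted p up to 0.0935), with limma-voom (0.0605), without the chow libraries of low mapping share (0.286) and in females only (0.0544). On MCD 2 were higher (Acsl1, Agpat5) and 3 lower (Agpat4, Gpd1, Plpp1), beside 8.06% and 8.53% of all genes. Gpd1 was 482.6, 499.4, 471.4, 536.4 and 653.6 CPM in Cre and 333.8 to 374.0 CPM (median 345.2) in liver-Flcn-/- mice, without overlap (log2 -0.60, SE 0.118, adjusted p = 0.00133). The diet raised Gpd1 in Cre mice (log2 0.40, SE 0.118, adjusted p = 0.00586) and in liver-Flcn-/- mice (log2 0.31, SE 0.119, adjusted p = 0.0375, or 0.0603 with no filter on low counts and 0.0698 with the replicate block), with an interaction of -0.09 (95% interval -0.44 to 0.25, adjusted p = 0.787).

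Agpat4, at about 1 to 2 CPM, was lower in liver-Flcn-/- mice on MCD (log2 -0.76, SE 0.233, edgeR adjusted p = 0.0284) and its response to the diet differed (log2 -1.24, SE 0.345, adjusted p = 0.0283). The genotype call was lost without Cre MCD 1 or 4 or KO MCD 3, 5 or 6 (adjusted p up to 0.0752) and the interaction without Cre MCD 1, KO Chow 4 or 5 or KO MCD 6 (up to 0.0603). Without a filter on low counts both were lost (0.0781 and 0.0706), as they were with the replicate block (0.0541 and 0.0728) and in females only (0.0928 and 0.161), and without the chow libraries of low mapping share the interaction was lost (0.152). Plpp1 was lower by log2 -0.40 (SE 0.135, adjusted p = 0.0457), a call kept in 9 of 22 fits that leave out a mouse and lost without a filter on low counts (0.0985), with the replicate block (0.0975) and with total-count scaling (0.0572). Agpat5 (log2 0.35, SE 0.117, adjusted p = 0.0423), with adjusted p of 0.0583 to 0.29 in females only, with no filter, with the replicate block, with total-count scaling or without the chow libraries of low mapping share, falls outside the rule by which genes are named and was chosen after its values were seen.

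Among 12 branch enzymes and regulators, all tested, 4 were higher and 6 lower with the diet in Cre mice and 3 and 4 in liver-Flcn-/- mice, with medians of -0.29 and -0.28. Of all tested genes, 29.3% were higher and 28.2% lower in Cre mice and 22.5% each way in liver-Flcn-/- mice, so the counts of higher genes lay near the background. Srebf1, the factor that drives lipogenic genes, fell from 153.2 to 505.7 CPM (median 245.0) to 77.3 to 167.2 CPM in Cre mice (log2 -1.54, SE 0.290, edgeR adjusted p = 0.000122) and by log2 -1.77 (SE 0.283, adjusted p = 3.34e-05) in liver-Flcn-/- mice. Mlxipl, which encodes the carbohydrate-sensing factor ChREBP, fell by log2 -1.27 (SE 0.205, adjusted p = 2.07e-05) and -0.87 (SE 0.199, adjusted p = 0.00118). Pparg, a factor of lipid storage, rose by 1.29 (SE 0.242, adjusted p = 0.000116) and 1.00 (SE 0.243, adjusted p = 0.00198). Cds1, which diverts phosphatidic acid to other phospholipids, rose in Cre mice (log2 0.93, SE 0.352, adjusted p = 0.0275) at under 1.4 CPM, a call lost without Cre Chow 1 or 5 or Cre MCD 4 or 5 (adjusted p up to 0.0933), with limma-voom (0.0694), with no filter on low counts (0.0541), without the chow libraries of low mapping share (0.19), with the replicate block (0.0611) and in females only (log2 0.45, adjusted p = 0.466).

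Between genotypes 0 of the 12 passed on chow with edgeR (lowest adjusted p = 0.0725) and 1 on MCD, and 0 for the interaction (lowest adjusted p = 0.0752). The gene on MCD was Ppargc1a, the coactivator PGC-1alpha, which was 17.2, 13.4, 31.3, 16.1 and 17.7 CPM in Cre mice and 30.4 to 53.1 CPM (median 39.7) in liver-Flcn-/- mice (log2 1.10, SE 0.207, adjusted p = 0.000961). Only Cre MCD 3 reached into the range of the liver-Flcn-/- mice. Ppargc1a rose with the diet in Cre mice (log2 0.55, SE 0.206, adjusted p = 0.0257), a call lost without the chow libraries of low mapping share (log2 0.32, adjusted p = 0.321) and in females only (log2 0.08, adjusted p = 0.789), and in liver-Flcn-/- mice (log2 1.05, SE 0.207, adjusted p = 0.000314), with an interaction of 0.49 (SE 0.291, adjusted p = 0.315).

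**Figure D5:**
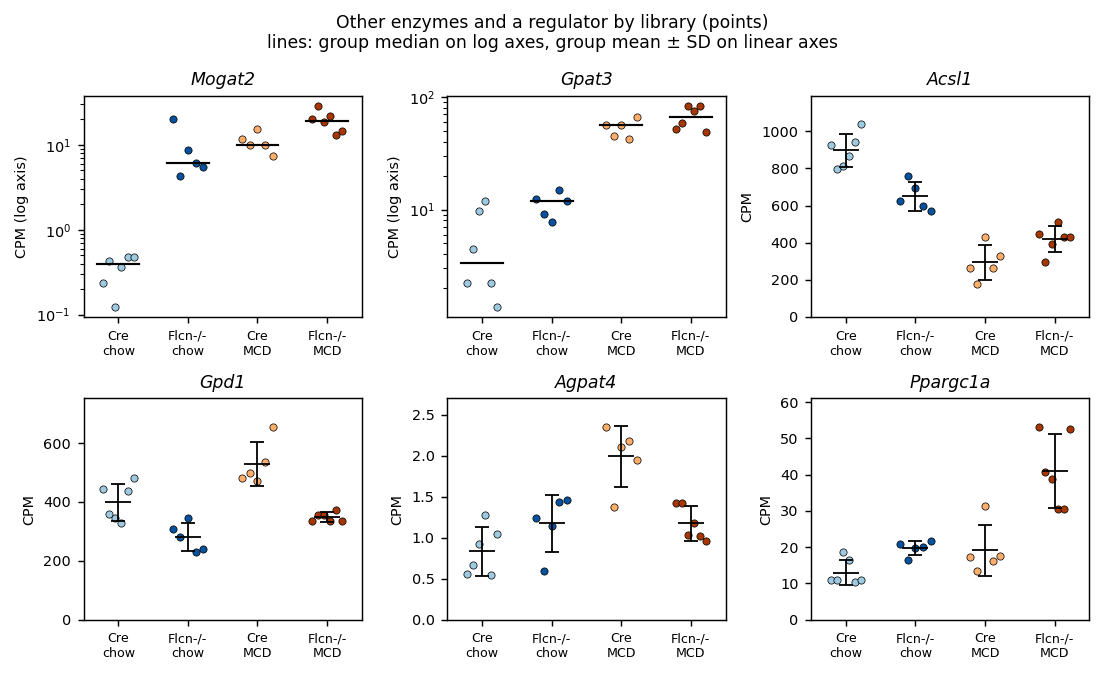
CPM of 5 other enzymes of the route and of Ppargc1a in 22 livers (points), on log axes with group medians for Mogat2 and Gpat3 and on axes from 0 with group mean and SD for the others. Mogat2 is below 0.5 CPM in Cre mice on chow and above 4 CPM in every other library.

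Markers of other cell types also moved with the diet, beside 29.3% of all genes higher and 28.2% lower in Cre mice and 22.5% each way in liver-Flcn-/- mice. The 3 tested neutrophil markers of 6 (led by S100a9, none at 0 throughout a group) were all higher on MCD in both genotypes, with summed medians of 2.94 and 3.81 CPM on chow and 23.2 and 15.4 CPM on MCD. The filter uses the mean over all libraries, so a gene low on chow can enter the test through the MCD libraries. In both genotypes S100a8 and S100a9 did not overlap between diets, while Ly6g, Retnlg and Ngp did. Mmp8 overlapped in liver-Flcn-/- mice only. Of 7 stellate markers 4 were higher on MCD in Cre mice and 1 higher and 1 lower in liver-Flcn-/- mice. Of 7 macrophage markers, led by Cd5l, 1 was higher and 2 lower in Cre mice and 4 lower in liver-Flcn-/- mice, at summed medians of 469.0 and 527.6 CPM on chow and 436.9 and 319.8 CPM on MCD. Of 6 cholangiocyte markers, led by Spp1, 3 were higher in Cre mice and 0 passed in liver-Flcn-/- mice, at summed medians of 57.5 and 116.5 CPM on chow and 134.0 and 124.0 CPM on MCD. Of 6 endothelial markers, led by Stab2 and with none at 0, 1 was higher and 3 lower in Cre mice and 4 were lower in liver-Flcn-/- mice, at summed medians of 187.2 and 215.9 CPM on chow and 150.7 and 170.9 CPM on MCD. Skeletal muscle markers were uneven among Cre mice on MCD, with sums of 15.9, 2.20, 2477, 123.5 and 1.08 CPM. On chow the sums were 1.19 to 5.55 CPM (median 1.65) in Cre mice and 0.99 to 11.4 CPM (median 1.48) in liver-Flcn-/- mice. Liver-Flcn-/- mice on MCD had 1.01 to 56.3 CPM (median 1.16). All 8 markers passed as higher on MCD in Cre mice (median log2 fold change 9.17), and 0 passed in liver-Flcn-/- mice. Between genotypes on MCD all 8 passed as lower in liver-Flcn-/- mice (median -5.8), beside 8.53% of all tested genes. Because Cre MCD 2 and Cre MCD 5 lay at chow level, these calls rest on few libraries, mainly Cre MCD 3. They are not read as a response to diet or genotype. The part of these cell types in the diet and genotype changes of the enzymes was not tested.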

How the data were processed

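The authors made mRNA libraries from frozen liver, ligating adapters with molecular identifiers, trimmed single-end reads with Trimmomatic, aligned them to GRCm38 with STAR and deposited HTSeq counts, whole numbers of reads per gene without normalization. Tool versions, the annotation release, the strand setting and any collapsing of identifiers are not given in the sources used here. Intervals cover the spread between libraries, in which differences between mice and amplification cannot be told apart.

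From these counts, genes with a mean of at least 10 counts were fitted with edgeR 4.0.16 in R 4.3.3 (TMM, 1 fit of 4 groups, two-sided quasi-likelihood test, Benjamini-Hochberg adjustment over 14062 genes, threshold 0.05). SE is the absolute log2 fold change divided by the root of the F statistic. CPM use TMM-scaled library sizes, log2 CPM a prior count of 2, and isozyme ratios 0.5 added to each count. Adjusted p-values in the text come from this fit unless a ratio or another tool is named. The 5 comparisons share groups, so their results are not independent. The edgeR script was tested on simulated data. Positions and exon lengths come from GENCODE M21 (GRCm38). Promoter windows come from RefSeq.

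The 10 enzymes, the other gene lists and the cell markers were chosen with earlier results of these data known, and the limit of 75% on uniquely mapped reads was set with the study's library statistics known. Named genes were all 10 enzymes, Flcn, the 2 genes most correlated with each tested enzyme, and up to 4 called genes with the largest change per other list and comparison. Alternatives were DESeq2 1.42.0, limma-voom (limma 3.58.1), RLE factors, no filter or a mean of 50 counts, only the groups compared, sex as a covariate, no chow libraries under the mapping limit, the replicate number as a block, 1 added to ratio counts, and leaving out each mouse. Total-count scaling and females only were added after seeing the data.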

Additional observations from a re-analysis of the deposited data

Results flagged for a closer look

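In 40 groups of libraries (10 enzymes in 4 groups), the highest or lowest library was set against its group by Dixon's criterion, which chance meets in about 1 group in 20. It was met by Acsl5 in Cre MCD 2, low at 247.2 CPM, by Lpin1 in Cre Chow 6, high at 411.5 CPM, by Lpin2 in KO MCD 1, high at 373.8 CPM, by Dgat1 in Cre MCD 2, high at 34.43 CPM, and by Dgat2 in Cre MCD 3, high at 597.1 CPM. Cre Chow 6 and KO MCD 1 had the highest clock gene sums of their groups (757.8 and 461.9 CPM). Cre MCD 3 had the highest sum of skeletal muscle markers (2477 CPM). The part of either in these values was not tested.

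The response of Lpin3 to the diet differed between genotypes, with an interaction log2 fold change of -0.8791 in the edgeR fit (adjusted p = 0.0157).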

How the results depend on the processing

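The 9 tested enzymes in 5 comparisons gave 45 results, of which 15 passed the threshold. Apart from fits that leave out a mouse, 147 of 164 alternative values of those 15 kept their direction and side of the threshold, 16 lost the threshold and 1 reversed, and of 322 alternative values of the 30 others 288 were alike, 5 gained the threshold and 29 reversed. Depth limits Mogat1, whose mean of 6.36 counts kept it out of the tests. The causes of the changes below were not tested.

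Enzymes passing for the interaction were 0 with limma-voom and 0 without the chow libraries under the mapping limit, against 1 (Lpin3); in females only Dgat2 passed in place of Lpin3. On MCD, enzymes passing between genotypes were 1 (Lpin3) in place of 2 without a filter on low counts, at a mean of 50 counts, with only the groups compared, without the chow libraries under the mapping limit, with total-count scaling and with the replicate block. Without the chow libraries under the limit, 495 genes differed between genotypes on chow and 783 in the interaction, against 1212 and 1242, and in females only 627 on chow.

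The replicate numbers number different mice in each group and were not taken as pairs. Deviations from the group means were correlated between mice with equal numbers, 5 pairs per comparison. Between diets the mean r was -0.0842 (-0.136 to -0.0146) in Cre mice and -0.0112 (-0.187 to 0.21) in liver-Flcn-/- mice. Between genotypes it was 0.0614 (-0.551 to 0.47) on chow and 0.129 (0.0621 to 0.262) on MCD, where all 5 values were positive. With the replicate block, 552 genes passed for the interaction, the Lpin2 interaction was -0.0477, and Lpin1 in Cre mice (adjusted p = 0.0748) and Dgat2 on MCD (adjusted p = 0.0502) missed the threshold, as did Flcn between genotypes on chow (adjusted p = 0.0528).

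The Agpat2 interaction (0.01) was -0.00766 with limma-voom, -0.000109 with RLE factors, -0.00694 without a filter, -0.0281 at a mean of 50 counts and -0.144 with total-count scaling. Dgat1 between genotypes on MCD (-0.01) was 0.00226 without a filter and 0.00354 with sex as a covariate. The Acsl5 interaction was -0.00571 at a mean of 50 counts and -0.121 with total-count scaling. Without the chow libraries under the limit the interactions of Gpam and Lpin2 were -0.134 and -0.29.

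With total-count scaling, chosen after seeing the data like females only, the diet values in Cre mice were 0.3 for Flcn, 0.154 for Agpat2 and 0.0621 for Dgat2, and in liver-Flcn-/- mice 0.0105 for Agpat2 and 0.167 for Lpin1. Between genotypes on chow they were 0.0223 for Agpat2, 0.106 for Agpat3, 0.0202 for Dgat1 and 0.0545 for Dgat2. Interactions were -0.00309 for Gpam, -0.0713 for Agpat3, -0.0163 for Lpin2 and -0.0416 for Dgat1. In females only, Lpin2 with the diet in liver-Flcn-/- mice was -0.00354, Agpat3 between genotypes 0.0013 on chow and -0.024 on MCD, Flcn on MCD 0.238, and the interactions were -0.0551 for Gpam, -0.0253 for Agpat3 and -0.297 for Lpin2.

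Leaving out each mouse in turn, genes between genotypes on chow numbered 669 to 1428 and for the interaction 813 to 1422, both lowest without KO Chow 4. Enzymes passing between genotypes on MCD numbered 1 to 2, with Dgat2 lost without any 1 of Cre MCD 1, 2, 4 and 5 and KO MCD 1, 3, 5 and 6, and for the interaction 1 to 2, with 2 without Cre MCD 3. Flcn with the diet in Cre mice ranged from -0.256 to 0.0129 and Lpin1 with the diet in liver-Flcn-/- mice from -0.449 to 0.073. On chow the genotype difference was -0.0873 to 0.00835 for Agpat3 and -0.0376 to 0.0589 for Lpin3. On MCD it was -0.0192 to 0.101 for Agpat3, -0.0452 to 0.0674 for Dgat1 and -0.084 to 0.59 for Lpin1. Interactions were -0.066 to 0.131 for Acsl5, -0.0693 to 0.0985 for Agpat2, -0.107 to 0.347 for Gpam and -0.0962 to 0.255 for Lpin2. The Agpat2 to Agpat3 ratio moved by -1.02 to -0.747 with the diet in Cre mice and -0.228 to 0.00165 between genotypes on chow, and the Dgat1 to Dgat2 ratio by -0.566 to -0.315 between genotypes on MCD and -0.089 to 0.00124 on chow.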
